A study of Homo sapiens with 12 samples.

Results

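The 42 genes described here encode the factors that start protein synthesis in human cells and the 4 kinases that phosphorylate eIF2. They were found by symbol among the gene names of 55598 assembled loci, with a symbol counted where it stood alone or as 1 whole item of a comma-separated list of names. The genes were picked by name and function, with no threshold on a measured value. The 42 genes lay in 42 loci, because EIF4H had 2 loci and EIF4G1 and EIF2B5 shared 1. Of the 42 genes, 30 had a locus of their own with a mean of at least 1 FPKM over the libraries and were compared between conditions. Levels are in FPKM, which corrects fragment counts for transcript length and library size.

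RNA came from U87MG, an established human glioblastoma cell line, so the data describe 1 line in culture. Cells were kept for 24 hours in hypoxia with acidosis (1% oxygen, pH 6.0), in hypoxia (1% oxygen, pH 7.4), in normoxia with acidosis (pH 6.0) or in normoxia (pH 7.4). The oxygen level of the normoxia cultures is not given in the sources used here. Fractions of a ribosome density gradient were sequenced as monosome, oligosome and polysome pools, the first of which the series design also calls free. Each condition and fraction gave 1 library, 12 in all, so no difference has a replicate check and no test or p-value is given.

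Translation of most mRNAs starts when the cap-binding complex eIF4F (EIF4E, the scaffold EIF4G1 and the helicase EIF4A1) brings in the small ribosomal subunit, which carries eIF3, eIF1, eIF1A, eIF5 and eIF2 with the initiator tRNA. After start codon recognition eIF2 leaves bound to GDP and is recharged by eIF2B, while EIF5B joins the large subunit. The kinases EIF2AK1 (HRI), EIF2AK2 (PKR), EIF2AK3 (PERK) and EIF2AK4 (GCN2) phosphorylate the alpha subunit of eIF2 and thereby block this recharging. Many mRNAs of the translation machinery, those of several eIF3 subunits among them, begin with a C and a run of pyrimidines, known as a TOP sequence, through which mTORC1 signalling controls their translation.

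Translation efficiency (TE) was the polysome FPKM plus 1 over the monosome FPKM plus 1, after the series design, and its changes are given as log2 differences between conditions relative to the median compared locus. Steady-state mRNA was the mean FPKM of the 3 fractions, weighted by the RNA that the authors recovered in each. A gene counts below as higher or lower in TE where it passed 1.5-fold the same way in both pairs of conditions that differ in 1 factor, and in mRNA where both pairs passed 2-fold with 1 direction over all fractions. The thresholds were kept for the only comparison of both stresses together with normoxia. Acidosis in normoxia, hypoxia at pH 7.4 and hypoxia with acidosis are all set against the same normoxia libraries, and the other pairs also share libraries with these, so their values are given side by side and are not independent.

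The libraries held an estimated 4530000 to 18250000 fragments each, with the 4 monosome libraries lowest at 4530000 to 7210000. The 100 most abundant loci held 66.2 to 71.2% of the summed FPKM in the monosome libraries and 30.6 to 40.6% in the polysome libraries. Among glioma and mesenchymal markers, VIM, CD44 and FN1 had a mean of at least 1 FPKM each. GFAP averaged 0.21 FPKM, and SOX2, OLIG2 and S100B were at 0.083 FPKM or less, so the astrocytic and stem cell markers of glioma were near 0. Of 12 markers of neurons, endothelium, immune cells, epithelium and oligodendrocytes, 3 had a mean of at least 1 FPKM, and 1 of these, CD68, shares its locus with EIF4A1, so its level is not its own.

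Of the 12 genes that were not compared, 10 lay in 9 loci that name several genes: EIF2B3, EIF2B5, EIF3E, EIF3J, EIF4A1, EIF4B, EIF4E, EIF4G1, EIF4G3 and EIF6. Their values are those of the whole locus, and the locus of EIF4G1 and EIF2B5 names 14 genes, so it is read for neither. EIF3C, an eIF3 core subunit, averaged 0.921 FPKM, and its near-identical copy EIF3CL averaged 0.024 FPKM. Both loci named EIF4H, a cofactor of the eIF4A helicases, were listed at 0 in all 12 libraries. The annotation holds at least 1 pseudogene named after 17 of the 42 genes, among them 13 for EIF4A1, 9 for EIF4B and 7 for EIF1, and reads may be split between such copies.

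Annotated transcription starts were read from RefSeq on GRCh38.p14 for 35 of the 42 genes, and 8 of these (22.9%) began with C followed by at least 4 bases that were C or T. Of all 35116 starts in the same table, 1429 (4.07%) had such a start, as did 5.59% of the starts of compared loci that name 1 gene. The 22.9% is a share of genes, some of which list several starts, while the 4.07% and 5.59% are shares of starts. A share of genes with any such start is the larger measure, so the values are not directly comparable. The search used the gene's strand and the annotated first base only, with no other motif. The 8 starts are printed here, with 3 starts that lack the run, because a later paragraph groups the compared genes by this run. Each window holds 10 bases before and 20 bases from the first annotated base, and capitals mark the pyrimidine run from that base.
EIF3F: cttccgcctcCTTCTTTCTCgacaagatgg
EIF3D: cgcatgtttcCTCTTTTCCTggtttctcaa
EIF3K: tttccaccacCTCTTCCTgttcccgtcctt
EIF3M: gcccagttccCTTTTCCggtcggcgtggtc
EIF2S3: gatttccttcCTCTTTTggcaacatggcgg
EIF2A: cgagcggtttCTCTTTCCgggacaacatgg
EIF4A2: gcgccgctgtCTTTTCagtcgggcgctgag
EIF4B: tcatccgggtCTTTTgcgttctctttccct
EIF3B, without the run: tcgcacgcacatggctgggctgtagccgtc
EIF3I, without the run: ttccggtcttactcacgttgcggccttcct
EIF2S1, without the run: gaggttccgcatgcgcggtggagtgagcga
The windows lie at chr11:7987327-7987356 (EIF3F, plus strand), chr22:36529147-36529176 (EIF3D, minus), chr19:38619178-38619207 (EIF3K, plus), chr11:32583821-32583850 (EIF3M, plus) and chrX:24054946-24054975 (EIF2S3, plus). Those of EIF2A, EIF4A2 and EIF4B lie at chr3:150546777-150546806, chr3:186783567-186783596 and chr12:53006446-53006475, all on the plus strand. Those of EIF3B, EIF3I and EIF2S1 lie at chr7:2354817-2354846, chr1:32222397-32222426 and chr14:67360318-67360347, also on the plus strand. The runs are 10 bases long in EIF3F and EIF3D, 8 in EIF3K and EIF2A, 7 in EIF3M and EIF2S3, 6 in EIF4A2 and 5 in EIF4B.

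Both stresses were accompanied by lower TE of many initiation factor mRNAs, with the small and mid-sized eIF3 subunits among the lowest and the largest subunits and 2 of the 4 kinases on the other side under both stresses together. Of these higher calls, that of EIF2AK4 was kept in all 8 alternative settings of the processing. EIF3A kept its call in 7 of them, EIF3B in 6 and EIF2AK1 in 4. With acidosis, 7 of the 30 compared genes (23.3%) were lower in TE in both pairs (EIF1B, EIF2S2, EIF3G, EIF3H, EIF3K, EIF3M and EIF4A3), against 6.53% of all 8946 compared loci that name 1 gene. EIF2AK1 alone was higher, 3.33% of the genes, against 5.54% of those loci. With hypoxia, 10 genes (33.3%) were lower (EIF1, EIF1B, EIF2S2, EIF2S3, EIF3G, EIF3H, EIF3I, EIF3K, EIF3M and EIF4E2), against 10.7% of all loci, and EIF2AK4 alone was higher, against 6.11%.

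Single pairs showed where these calls came from. For acidosis in normoxia 13 of the 30 genes were past 1.5-fold lower (43.3%, against 17.0% of loci) and 1 higher (against 13.7%). For acidosis in hypoxia 12 were lower (against 27.3%) and 7 higher (23.3%, against 27.4%). Hypoxia at pH 7.4 had 14 lower (46.7%, against 22.2%) and 1 higher (against 15.2%), and hypoxia at pH 6.0 had 12 lower (against 30.1%) and 8 higher (26.7%, against 25.8%). The genes thus lay mostly on the lower side where a single stress was set against normoxia, and on both sides where the second stress was added.

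In hypoxia with acidosis against normoxia, 18 of 30 genes were lower in TE, against 31.0% of all loci, and 5 (EIF2AK1, EIF2AK4, EIF3A, EIF3B and EIF5B) were higher, against 25.4%. The median TE change of the 30 genes was -0.87 in that comparison, where the median over all loci was -0.06. It was -0.44 for acidosis in normoxia and -0.50 in hypoxia, and -0.40 for hypoxia at pH 7.4 and -0.32 at pH 6.0, against medians within 0.04 of 0 over all loci. With FPKM scaled by the authors' RNA factors and not centred, the median of all loci itself moved to 0.31 for acidosis in normoxia, -0.39 for hypoxia at pH 7.4, -0.73 for hypoxia at pH 6.0 and -0.39 for both stresses. The genes' medians on that scale were -0.07, -0.82, -1.14 and -1.35 in the same comparisons, all still below 0 and below the median locus.

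**Figure D1:**
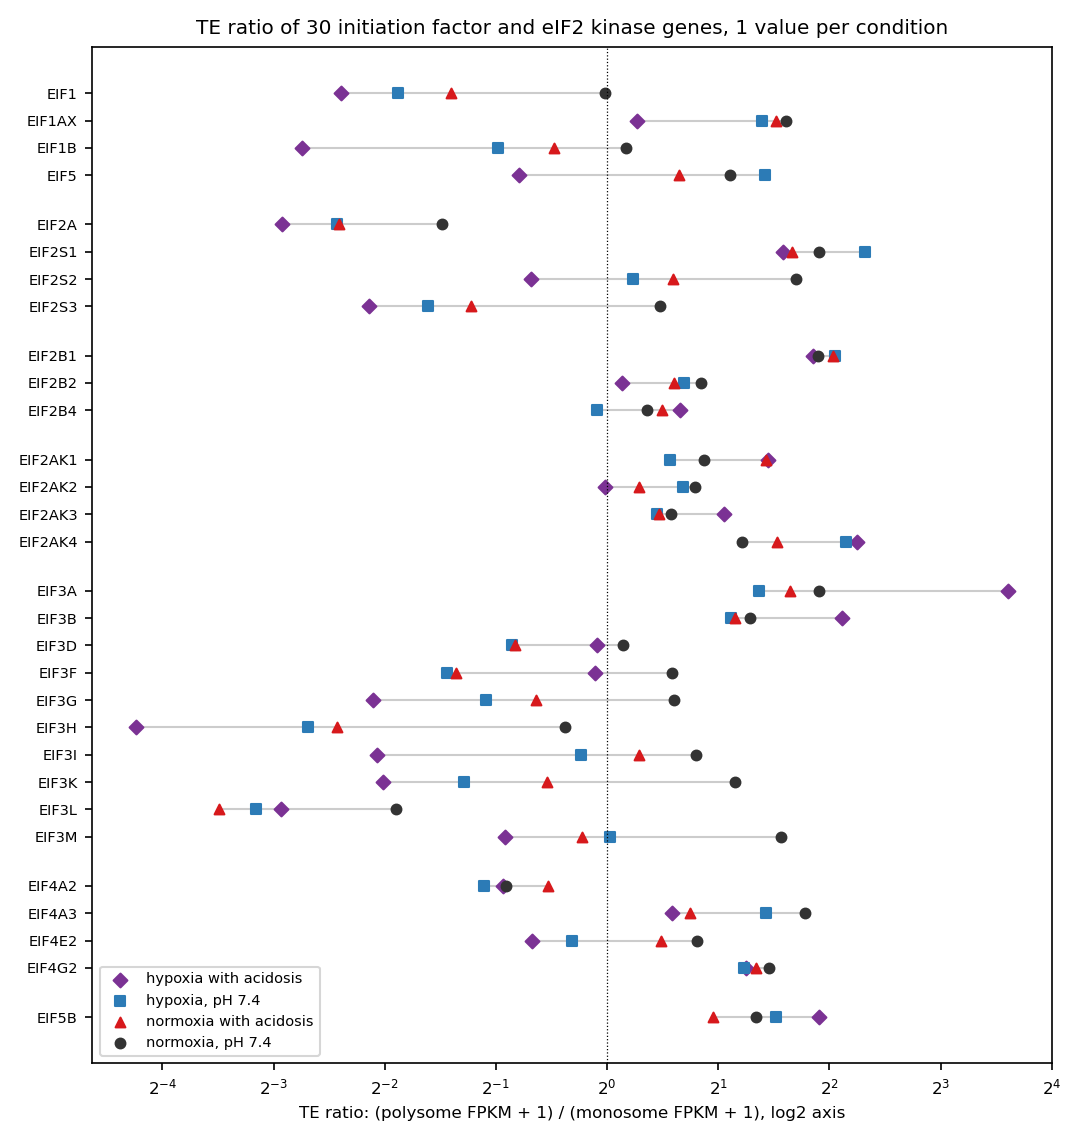
TE ratio (polysome FPKM + 1 over monosome FPKM + 1, log2 axis) of the 30 compared genes in the 4 conditions, 1 point per condition, grouped by role; the grey line spans the 4 values. EIF3H lies between 0.053 in hypoxia with acidosis and 0.768 in normoxia, while EIF3A lies at 12.2 in hypoxia with acidosis, 2.58 in hypoxia, 3.12 in normoxia with acidosis and 3.76 in normoxia.

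Steady-state mRNA passed its threshold for 0 of the 30 genes in either direction with acidosis, where 1.2% of all loci were higher and 0.224% lower. It did so for 0 of the 30 with hypoxia too, where 2.31% of loci were higher and 0.827% lower. Under both stresses together, 5 genes were higher (EIF1, EIF2A, EIF3D, EIF3L and EIF4A2, 16.7%), against 12.4% of loci, and 3 were lower (EIF1AX, EIF2S1 and EIF5, 10.0%), against 12.2%. Both shares are near those of all loci. The lower call of EIF1AX was kept in 4 of 8 alternative settings and lost without the filter on low values, without centring, with the RNA scaling and with unweighted fractions, and the higher call of EIF4A2 was lost with the RNA scaling. The median mRNA change of the 30 genes under both stresses was 0.40, against 0.01 over all loci. Under the RNA scaling the median of all loci moved to -0.38 for hypoxia at pH 7.4, -0.32 for hypoxia at pH 6.0 and -0.38 for both stresses, and the genes' medians turned to -0.25 and -0.04 in the first 2 of these, where the centred values were 0.12 and 0.28, and for both stresses the genes' median was 0.005, against the centred 0.40. As deposited, without centring, FPKM moved the mRNA median of all loci by 0.15 for acidosis in hypoxia and 0.11 for hypoxia at pH 6.0.

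The eIF3 complex, the largest initiation factor, holds the small subunit ready for the mRNA, and 10 of its 13 subunits among the 42 genes could be compared. All 10 had lower TE than in the matching pH 7.4 normoxia libraries with acidosis alone and with hypoxia alone, with medians of -1.36 and -1.30. Of all 8946 compared loci that name 1 gene, 4573 and 4668 were below 0 in these pairs. In the other pair of each factor the subunits divided, 5 below 0 and 5 above, with medians of -0.24 for acidosis in hypoxia and -0.04 for hypoxia at pH 6.0. Lower TE with a single stress was not particular to eIF3. In the same order, the 4 medians of 7 elongation and release factors were -1.14, -1.04, 0.06 and -0.07. Those of 59 ribosomal protein genes were -2.149, -2.435, -1.06 and -1.35. In mRNA all 10 eIF3 subunits were above the median locus under both stresses, against 4518 of the 8946 loci, with a median of 1.01. In TE 8 of the 10 were below 0 there, while EIF3A and EIF3B were above 0 in both measures. The mRNA median stayed above 0 with FPKM as deposited (1.09) and with the RNA scaling (0.61).

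EIF3H, a subunit of the octameric eIF3 core, showed the lowest TE of all 30 genes in that comparison. Its triplets below, as all others that follow, are in the order monosome, oligosome, polysome: EIF3H had 1446, 343 and 76.3 FPKM in hypoxia with acidosis, 512, 111 and 78.4 in hypoxia, 547, 190.1 and 101 in normoxia with acidosis, and 166, 68.1 and 127 in normoxia. Monosome FPKM of EIF3H was highest under both stresses and lowest in normoxia, while polysome FPKM was lowest under both stresses. The TE ratio of EIF3H was 0.053 in hypoxia with acidosis, 0.155 in hypoxia, 0.186 in normoxia with acidosis and 0.768 in normoxia. The change was -2.00 for acidosis in normoxia and -1.52 in hypoxia, and -2.22 for hypoxia at pH 7.4 and -1.76 at pH 6.0, against -3.79 for both stresses, with counting errors of 0.06 to 0.07 on the log2 scale. The share of EIF3H RNA in the monosome fraction, weighted by RNA recovered, was 70.6% in hypoxia with acidosis, 51.7% in hypoxia, 29% in normoxia with acidosis and 21% in normoxia.

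EIF3K, another small subunit of the complex, had 550.4, 345 and 135 FPKM in hypoxia with acidosis, 381, 136 and 156 in hypoxia, 267, 168 and 183 in normoxia with acidosis, and 105, 100.3 and 234 in normoxia. Its changes were -1.64 and -0.72 for acidosis, -2.34 and -1.45 for hypoxia and -3.12 for both stresses. As with EIF3H, the 3 stressed conditions had more EIF3K in the monosome library and less in the polysome library than normoxia. EIF3M, which sits in the same octamer, had 415, 379 and 219 FPKM in hypoxia with acidosis, 176, 147 and 179 in hypoxia, 260.4, 229.8 and 222 in normoxia with acidosis, and 101, 104 and 299.6 in normoxia. EIF3M was more polysomal than EIF3H and EIF3K in normoxia, with a TE ratio of 2.95, and the ratio was 0.529 under both stresses, a change of -2.43.

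EIF3G, an RNA-binding subunit of the yeast-like core, had 369, 206 and 84.8 FPKM in hypoxia with acidosis, 229, 80.7 and 107 in hypoxia, 194, 113 and 124 in normoxia with acidosis, and 106, 66.9 and 162 in normoxia. EIF3I, a WD-repeat subunit that pairs with EIF3G, had 749.6, 289 and 178 FPKM in hypoxia with acidosis, 222, 69.8 and 189 in hypoxia, 169, 83.04 and 206 in normoxia with acidosis, and 112, 41.5 and 196 in normoxia. The TE of EIF3G was lower in all 4 pairs (-1.19, -1.01, -1.60 and -1.44, acidosis pairs first). That of EIF3I was -0.46 for acidosis in normoxia and lowest where the second stress was added, at -1.83 for acidosis in hypoxia and -2.33 for hypoxia at pH 6.0. EIF3I thus missed the threshold for acidosis in the normoxia pair and passed it for hypoxia in both pairs. EIF3E, in a locus that also names a ribosomal protein pseudogene, followed EIF3H: its locus had 1334, 360.4 and 83.9 FPKM in hypoxia with acidosis, 386, 131 and 71.2 in hypoxia, 518, 224 and 82.2 in normoxia with acidosis, and 173, 97.8 and 94.6 in normoxia, with TE changes of -1.73 and -1.54 for acidosis and -1.46 and -1.30 for hypoxia. The locus of EIF3J, a loosely bound subunit, which names 1 other gene, was also lower in TE in both pairs of each factor, at -2.09 under both stresses, and its mRNA was lower by more than 2-fold in both hypoxia pairs (-1.14 and -1.03).

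**Figure D2:**
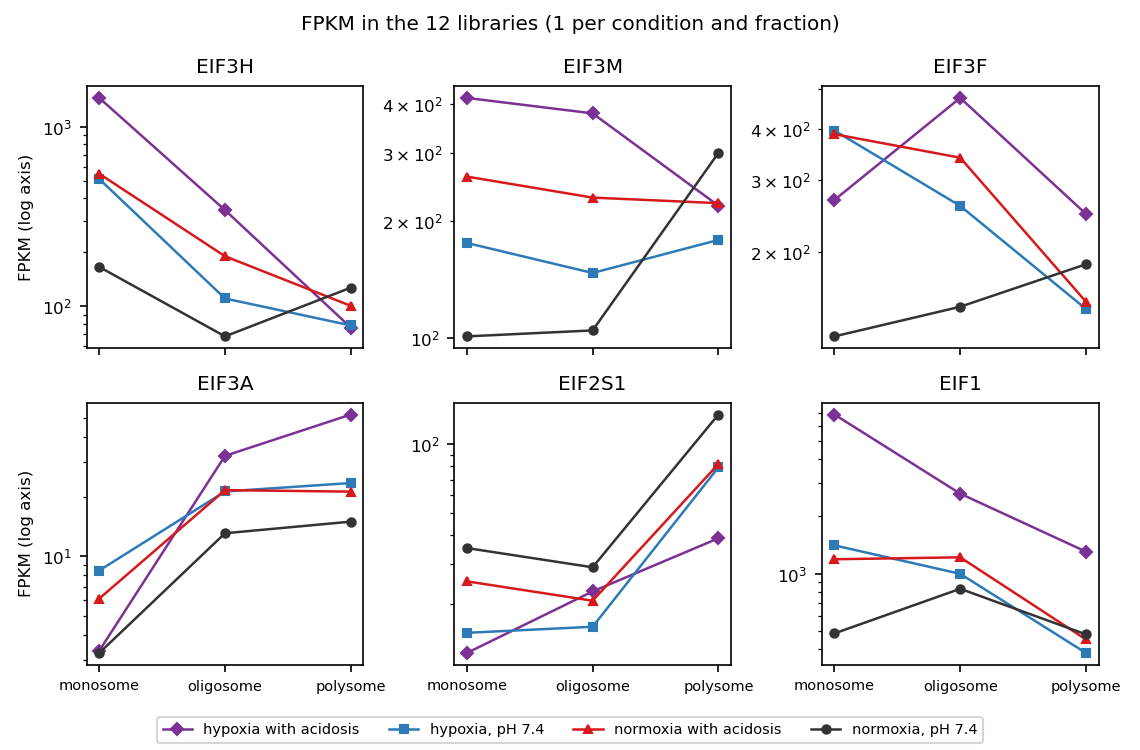
FPKM (log axis, a separate scale in each panel) of 6 genes in the monosome, oligosome and polysome libraries, 1 line per condition and 1 library per point. EIF3H and EIF1 have their highest monosome values in hypoxia with acidosis (1446 and 6881 FPKM), EIF3A has its highest polysome value there (51.9 FPKM), and the EIF2S1 polysome value is highest in normoxia (134.8 FPKM).

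Other subunits did not keep 1 direction. EIF3F, an octamer subunit whose start carries a 10-base pyrimidine run, had 268, 476 and 248 FPKM in hypoxia with acidosis, 396, 259 and 145 in hypoxia, 388, 340.1 and 151 in normoxia with acidosis, and 124, 147 and 187 in normoxia. Its monosome FPKM was high in either single stress and intermediate under both. The TE change of EIF3F was -1.89 for acidosis in normoxia and 1.34 in hypoxia, and -1.93 for hypoxia at pH 7.4 and 1.27 at pH 6.0. EIF3D, the subunit that can itself bind caps, had 87.1, 111 and 81.9 FPKM in hypoxia with acidosis, 73.7, 42.3 and 40.3 in hypoxia, 58.2, 45.1 and 32.4 in normoxia with acidosis, and 24.9, 19.9 and 27.6 in normoxia. The changes of EIF3D were -0.92 and 0.78 for acidosis and -0.90 and 0.77 for hypoxia, so that its TE ratio under both stresses (0.942) was close to that in normoxia (1.10). Acidosis moved 2 of the 30 genes (EIF3D and EIF3F, 6.67%) past 1.5-fold in opposite directions in its pairs, against 5.79% of all loci. Hypoxia did so for 3 (EIF3D, EIF3F and EIF3L, 10.0%), against 5.97%. Counts of 2 and 3 among 30 genes do not set them apart from all loci.

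EIF3L, the partner of EIF3K, had 1018, 456 and 133 FPKM in hypoxia with acidosis, 708, 203 and 78.5 in hypoxia, 976, 287 and 86.2 in normoxia with acidosis, and 298, 127 and 78.9 in normoxia. Its TE ratio was the lowest of the compared subunits in every condition but hypoxia with acidosis. That ratio was 0.131 in hypoxia with acidosis, 0.112 in hypoxia, 0.089 in normoxia with acidosis and 0.268 in normoxia, highest in normoxia, and its mRNA under both stresses was 1.53 above the median locus on the log2 scale.

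EIF3A and EIF3B, large subunits that form the scaffold of the complex, had the lowest monosome values of the compared subunits in each condition. EIF3A had 3.33, 32.1 and 51.9 FPKM in hypoxia with acidosis, 8.47, 21.2 and 23.4 in hypoxia, 6.11, 21.6 and 21.2 in normoxia with acidosis, and 3.25, 13.1 and 14.9 in normoxia. Oligosome and polysome FPKM of EIF3A were highest under both stresses, where the monosome value matched that of normoxia. EIF3B had 8.82, 15.3 and 41.4 FPKM in hypoxia with acidosis, 18.8, 19.3 and 42.03 in hypoxia, 10.2, 12.9 and 23.8 in normoxia with acidosis, and 13.96, 16.9 and 35.4 in normoxia. For acidosis in normoxia the TE change was -0.22 for EIF3A and -0.09 for EIF3B, and for acidosis in hypoxia it was 2.26 for EIF3A and 1.01 for EIF3B. Under both stresses the changes were 1.75 (counting error 0.24) for EIF3A and 0.88 (0.18) for EIF3B. The aggregate FPKM of EIF3H over that of EIF3B was 14.6 under both stresses, 5.35 in hypoxia, 10.3 in normoxia with acidosis and 4.32 in normoxia.

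**Figure D3:**
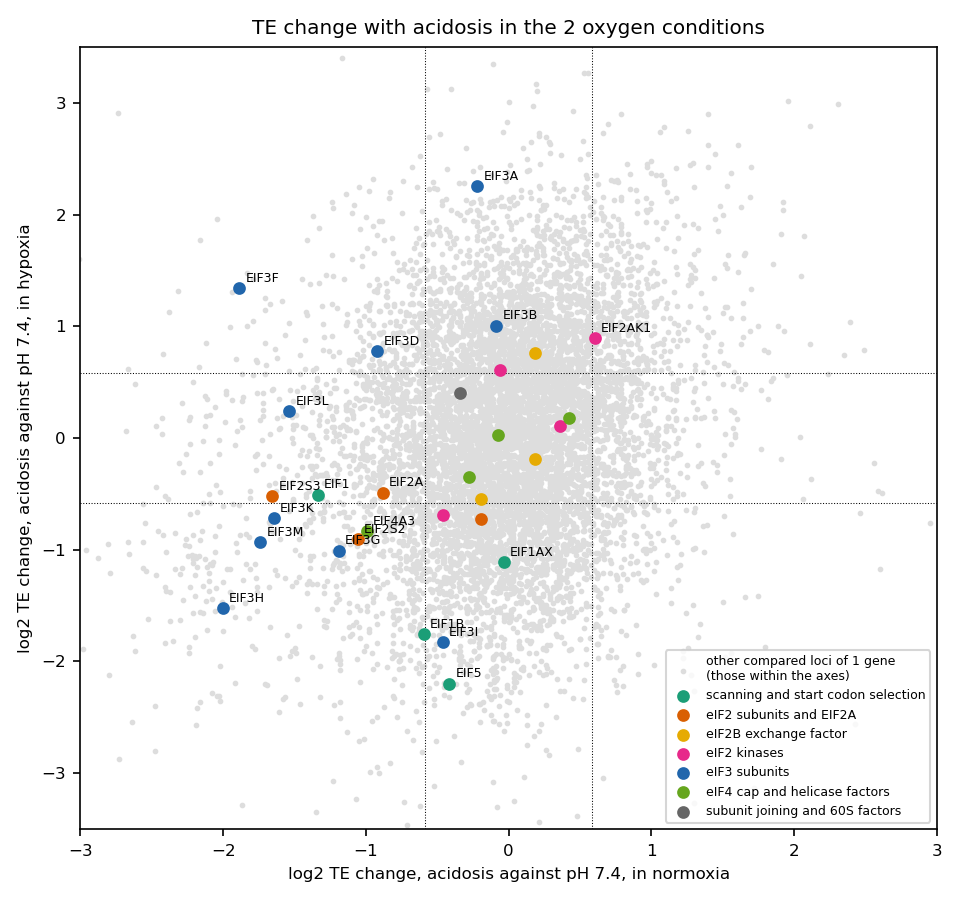
Log2 TE change with acidosis against pH 7.4 in normoxia (x axis) and in hypoxia (y axis), relative to the median locus, for the 30 compared genes coloured by role and other compared loci in grey; dotted lines mark 1.5-fold, and names are given where either change exceeds 0.8. EIF3H, EIF3M, EIF3K and EIF3G lie past both lines at lower left, EIF3F and EIF3D at upper left, and EIF2AK1 at upper right.

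Among the factors of scanning and start codon selection, EIF1, which guards the accuracy of start codon choice, was the most abundant gene of all 30. EIF1 had 6881, 2636 and 1304 FPKM in hypoxia with acidosis, 1408, 997 and 382 in hypoxia, 1189.5, 1218 and 449.6 in normoxia with acidosis, and 484, 831 and 478 in normoxia. In each fraction the EIF1 value under both stresses was above those of the other conditions, and the aggregate was 2758 FPKM in hypoxia with acidosis, 772 in hypoxia, 853 in normoxia with acidosis and 602 in normoxia. Its mRNA was 4.31-fold higher under both stresses than in normoxia, with TE changes of -1.77 and -0.96 for hypoxia. For acidosis EIF1 passed 1.5-fold in normoxia (-1.34) and not in hypoxia (-0.51). Its paralog EIF1B had 251, 64.1 and 36.5 FPKM in hypoxia with acidosis, 40.7, 51.3 and 20.1 in hypoxia, 47.4, 55.1 and 33.7 in normoxia with acidosis, and 35.1, 71.6 and 39.5 in normoxia. The monosome value of EIF1B under both stresses stood apart from its other 3 monosome values, and the TE changes were -0.60 and -1.75 for acidosis and -1.05 and -2.24 for hypoxia. The lower TE of EIF1B depended on the monosome libraries: as polysome over oligosome its mean change with acidosis was 0.36.

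EIF5, the GTPase activator of eIF2, and EIF1AX, the X-linked gene of eIF1A, differed from EIF1 in mRNA. EIF5 had 33.5, 11.2 and 18.97 FPKM in hypoxia with acidosis, 28.1, 32.8 and 76.8 in hypoxia, 48.98, 24.4 and 77.2 in normoxia with acidosis, and 52.2, 36.8 and 114 in normoxia. Aggregate EIF5 was 20.1 FPKM in hypoxia with acidosis, 52.9 in hypoxia, 51.7 in normoxia with acidosis and 78.2 in normoxia, 0.25 times the normoxia level relative to the median locus under both stresses. Its TE passed 1.5-fold where the second stress was added, at -2.20 for acidosis in hypoxia and -1.40 for hypoxia at pH 6.0, and not for acidosis in normoxia (-0.42) or hypoxia at pH 7.4 (0.40). EIF1AX had 10.7, 9.82 and 13.1 FPKM in hypoxia with acidosis, 4.93, 10.6 and 14.6 in hypoxia, 7.17, 8.78 and 22.5 in normoxia with acidosis, and 10.5, 15.1 and 33.9 in normoxia. Its mRNA was 0.48 times that of normoxia under both stresses, and its TE change of -1.28 had a counting error of 0.44. That error came from an estimated 33 and 21 monosome fragments over the coding length in normoxia and under both stresses. The coding length of EIF1AX is 432 bases of a 4427-base annotated transcript, so these numbers are low estimates. Values of the EIF1AXP1 locus, a pseudogene of EIF1AX, averaged 13.3 FPKM against 13.5 FPKM for EIF1AX, so the counts of the pair may be split.

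The 3 subunits of eIF2 did not move together. EIF2S1, the alpha subunit that the kinases phosphorylate, had 12.3, 22.8 and 38.9 FPKM in hypoxia with acidosis, 15.04, 15.99 and 79.3 in hypoxia, 25.2, 20.8 and 82 in normoxia with acidosis, and 35.3, 29.1 and 135 in normoxia. Aggregate EIF2S1 was 29.7 FPKM in hypoxia with acidosis, 45.8 in hypoxia, 50.1 in normoxia with acidosis and 83.8 in normoxia, with changes of -0.70 and -0.76 for acidosis, -0.79 and -0.84 for hypoxia and -1.55 for both stresses. Its RNA stayed mostly in polysomes, 73.5% of it under both stresses, 82.0% in hypoxia, 77.2% in normoxia with acidosis and 81.9% in normoxia. EIF2S2, the beta subunit, had 68.1, 50.3 and 41.96 FPKM in hypoxia with acidosis, 38.9, 23.4 and 45.8 in hypoxia, 47.1, 36.9 and 71.7 in normoxia with acidosis, and 20.8, 23.98 and 69.9 in normoxia. EIF2S3, the gamma subunit that binds GTP and the initiator tRNA, had 145, 116 and 32.1 FPKM in hypoxia with acidosis, 72.2, 36.9 and 22.9 in hypoxia, 78.3, 57.8 and 32.96 in normoxia with acidosis, and 24.5, 24.7 and 34.5 in normoxia. EIF2S2 was lower in TE in both pairs of each factor (-1.06 and -0.90 for acidosis, -1.38 and -1.25 for hypoxia) with mRNA changes between -0.29 and 0.27. EIF2S3 was lower in TE in both hypoxia pairs (-2.00 and -0.89), with mRNA 1.22 above the median locus under both stresses. The aggregate FPKM of EIF2S3 over that of EIF2S1 was 2.52 under both stresses, 0.786 in hypoxia, 0.96 in normoxia with acidosis and 0.354 in normoxia.

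EIF2A, a separate protein described as an alternative carrier of initiator tRNA, had 367, 169 and 47.4 FPKM in hypoxia with acidosis, 171, 50.1 and 30.9 in hypoxia, 137, 63.2 and 24.9 in normoxia with acidosis, and 72.4, 39.1 and 25.3 in normoxia. Its TE ratio was below 1 in every condition, 0.132 in hypoxia with acidosis, 0.186 in hypoxia, 0.188 in normoxia with acidosis and 0.358 in normoxia, and its mRNA was 3.56-fold higher under both stresses than in normoxia. With acidosis the mRNA change was 0.53 in normoxia and 1.06 in hypoxia, and with hypoxia it was 0.77 at pH 7.4 and 1.31 at pH 6.0.

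The 3 compared genes of the exchange factor eIF2B, all of its regulatory subcomplex, had TE changes between -0.66 and 0.76. EIF2B1 had 6.89, 7.71 and 27.4 FPKM in hypoxia with acidosis, 8.17, 9.82 and 36.9 in hypoxia, 9.03, 9.24 and 40.1 in normoxia with acidosis, and 11.8, 10.7 and 46.8 in normoxia, and its TE change lay between -0.19 and 0.24 in the 5 comparisons. EIF2B4 had an aggregate of 7.87 FPKM in hypoxia with acidosis, 9.22 in hypoxia, 7.899 in normoxia with acidosis and 8.69 in normoxia. That of EIF2B2 was 32.2 FPKM in hypoxia with acidosis, 21.6 in hypoxia, 21.1 in normoxia with acidosis and 23.04 in normoxia. EIF2B2 had 28.4, 37.9 and 31.3 FPKM in hypoxia with acidosis, 18.9, 10.4 and 31.1 in hypoxia, 18.8, 12.7 and 29.2 in normoxia with acidosis, and 18.3, 9.41 and 33.7 in normoxia, and its TE change of -0.66 under both stresses passed 1.5-fold by a margin below its counting error of 0.20. The locus of EIF2B3, a catalytic subcomplex member, was lower in mRNA under both stresses (-1.09).

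Of the eIF2 kinases, EIF2AK2 and EIF2AK3 were the least abundant of the 30 genes. EIF2AK1, the heme-regulated kinase that also relays mitochondrial stress, had 16.6, 18.8 and 47.1 FPKM in hypoxia with acidosis, 25.9, 27.6 and 38.98 in hypoxia, 18.5, 23.2 and 51.5 in normoxia with acidosis, and 25.5, 24.3 and 47.5 in normoxia. Its monosome values were lower in both pH 6.0 conditions than in both at pH 7.4, while the polysome values of EIF2AK1 overlapped between them. Its TE changes for acidosis were 0.60 (counting error 0.13) in normoxia and 0.89 (0.16) in hypoxia, against -0.21 and 0.05 for hypoxia. The normoxia value exceeded the 0.58 of the threshold by less than its counting error, and 4 of 8 alternative settings ended the acidosis call. The higher call of EIF2AK1 under both stresses was likewise kept in 4 of 8.

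EIF2AK4, which senses uncharged tRNA and stalled ribosomes, had 4.02, 7.63 and 22.9 FPKM in hypoxia with acidosis, 4.58, 11.7 and 23.8 in hypoxia, 9.18, 16.01 and 28.3 in normoxia with acidosis, and 8.06, 12.5 and 20.02 in normoxia. Both hypoxic monosome values of EIF2AK4 were below both normoxic ones, and the polysome values overlapped. The TE changes of EIF2AK4 were 1.03 (counting error 0.16) for hypoxia at pH 7.4 and 0.76 (0.18) at pH 6.0, against 0.36 and 0.11 for acidosis. The hypoxia call of EIF2AK4 was lost with the authors' RNA scaling and with polysome over oligosome. EIF2AK2, activated by double-stranded RNA, had 3.66, 2.71 and 3.604 FPKM in hypoxia with acidosis, 2.09, 2.03 and 3.95 in hypoxia, 3.28, 2.46 and 4.23 in normoxia with acidosis, and 2.87, 2.52 and 5.697 in normoxia. EIF2AK3, the kinase of endoplasmic reticulum stress, had 1.64, 2.35 and 4.46 FPKM in hypoxia with acidosis, 3.07, 4.39 and 4.57 in hypoxia, 1.81, 2.01 and 2.87 in normoxia with acidosis, and 1.98, 2.95 and 3.43 in normoxia. Both lay near 3 FPKM, with 20 to 58 estimated fragments over the coding length in each monosome library. Counting errors on that basis were 0.31 to 0.47, on TE changes that lay between -0.76 and 0.62. Annotated transcripts of EIF2AK2 and EIF2AK3 are longer (10042 and 4646 bases, against 1653 and 3348 coding), so these errors are high estimates. EIF2AK2 passed 1.5-fold under both stresses (-0.76) by less than its counting error. With errors that are high estimates and 1 library per fraction, these values do not settle whether either kinase changed by about that size.

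The eIF4 group holds the cap-binding and helicase factors. EIF4E, the cap-binding subunit, lies in a locus with 1 other name that had 9.31, 4.64 and 3.62 FPKM in hypoxia with acidosis, 6.41, 13.9 and 8.91 in hypoxia, 5.69, 12.4 and 20.3 in normoxia with acidosis, and 14.6, 25.8 and 21.5 in normoxia. Its aggregate was 5.02 FPKM in hypoxia with acidosis, 10.3 in hypoxia, 15.5 in normoxia with acidosis and 22 in normoxia, an mRNA change of -2.02 under both stresses. An estimated 27 and 33 fragments lay over the 651-base coding length of EIF4E in the monosome and polysome libraries there. The annotated transcript has 11523 bases, so these are low estimates. EIF4E2, a cap-binding homolog described in repression and in translation under low oxygen, had 132, 107 and 82.9 FPKM in hypoxia with acidosis, 46.3, 69.1 and 37.1 in hypoxia, 38.2, 73.6 and 53.9 in normoxia with acidosis, and 25.8, 61.02 and 45.9 in normoxia. EIF4E2 was higher in every fraction under both stresses than in any other condition, with TE changes of -1.03 and -1.12 for hypoxia and -0.28 and -0.35 for acidosis. The aggregate FPKM of EIF4E2 over that of the EIF4E locus was 19.7 under both stresses, 4.88 in hypoxia, 3.94 in normoxia with acidosis and 2.198 in normoxia.

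Of the helicases, EIF4A1 lies in a locus with 4 other names that had 999.5, 1380.3 and 1013 FPKM in hypoxia with acidosis, 599.8, 392 and 719 in hypoxia, 490.4, 501 and 750.3 in normoxia with acidosis, and 296, 265 and 833 in normoxia. The TE change of that locus under both stresses was -1.42. EIF4A2, its paralog, had 379, 429 and 198 FPKM in hypoxia with acidosis, 238, 178 and 109.9 in hypoxia, 229.5, 280.3 and 158 in normoxia with acidosis, and 166, 132 and 87.9 in normoxia. EIF4A2 was higher in mRNA under both stresses (2.37-fold) at nearly the same TE (0.03). The other compared genes with a pyrimidine start had TE changes below 0. That of EIF3D was small (-0.18, counting error 0.12), also with higher mRNA (3.35-fold). EIF4A3, the helicase of the exon junction complex and not of eIF4F, had 12.02, 15.1 and 18.5 FPKM in hypoxia with acidosis, 13.99, 10.3 and 39.4 in hypoxia, 12.9, 9.76 and 22.2 in normoxia with acidosis, and 11.8, 11.03 and 43.1 in normoxia. Its TE was lower with acidosis in both pairs (-0.99 and -0.83) and near the median locus with hypoxia (-0.26 and -0.12).

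The locus of EIF4B, the cofactor of EIF4A whose start carries the 5-base run, named 1 other gene and had 72.1, 389.7 and 153 FPKM in hypoxia with acidosis, 224, 217 and 71.2 in hypoxia, 208, 211 and 49.8 in normoxia with acidosis, and 49.97, 110.3 and 36.7 in normoxia. Its monosome value was low in normoxia and under both stresses and high in either stress alone, which gave TE changes of -1.56 and 2.73 for acidosis and -1.11 and 3.15 for hypoxia. The 14-gene locus of EIF4G1 had 521, 581 and 1152 FPKM in hypoxia with acidosis, 475, 582 and 878 in hypoxia, 356, 463 and 815 in normoxia with acidosis, and 402, 565 and 889 in normoxia, and its TE change stayed within 0.27 of the median locus in all 5 comparisons. EIF4G2 (DAP5), a scaffold that does not bind EIF4E, had an aggregate of 155 FPKM in hypoxia with acidosis, 155 in hypoxia, 201 in normoxia with acidosis and 287 in normoxia. The TE change of EIF4G2 stayed within 0.16 of the median locus in all 5 comparisons, the narrowest range among the 30 genes, at -0.15 under both stresses.

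EIF5B, the GTPase of subunit joining, had 3.14, 7.14 and 14.5 FPKM in hypoxia with acidosis, 3.79, 10.3 and 12.7 in hypoxia, 4.47, 10.1 and 9.58 in normoxia with acidosis, and 3.98, 12.5 and 11.6 in normoxia. Its aggregate was nearly level (10.5 FPKM in hypoxia with acidosis, 10.4 in hypoxia, 9.33 in normoxia with acidosis and 10.8 in normoxia), and the TE change was 0.27 for hypoxia at pH 7.4, 0.99 at pH 6.0 and 0.62 under both stresses (counting error 0.26). The higher call of EIF5B under both stresses was kept in 4 of 8 alternative settings. The 5-name locus of EIF6, which keeps the large subunit from joining too early, had TE changes of -0.41 and 0.79 for acidosis and -0.99 and 0.19 for hypoxia.

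The 7 compared genes with a pyrimidine start had a higher median mRNA change than the 17 with a listed start that lacks one. EIF3A, EIF3G, EIF3H, EIF3L, EIF2S2 and EIF2AK1 were compared but have no listed start, so they are in neither group. Among them are the lowest and the highest TE change of the compared genes under both stresses (EIF3H, -3.79, and EIF3A, 1.755). Under both stresses the median mRNA change was 1.22 for the 7 and -0.13 for the 17, and all 7 were above 0. Over all compared loci the same medians were 0.63 for 470 loci with such a start and -0.09 for 5527 without. For TE the medians of the genes were -1.64 and -0.20 for acidosis in normoxia and -1.44 and -0.07 for hypoxia at pH 7.4, while for acidosis in hypoxia they were -0.49 and -0.51, and under both stresses -1.39 and -0.66. Over all compared loci with and without such a start the TE medians lay closer together, at -0.275 and 0.004 for acidosis in normoxia, -0.305 and 0.029 for hypoxia at pH 7.4, and -0.286 and -0.001 under both stresses. The run length of 4 bases was chosen after these values had been seen, and the presence of the run describes the annotated start only. EIF3I, whose printed start lacks the run, had a TE change under both stresses (-2.82) between those of EIF3K (-3.12) and EIF3M (-2.43), which carry it.

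**Figure D4:**
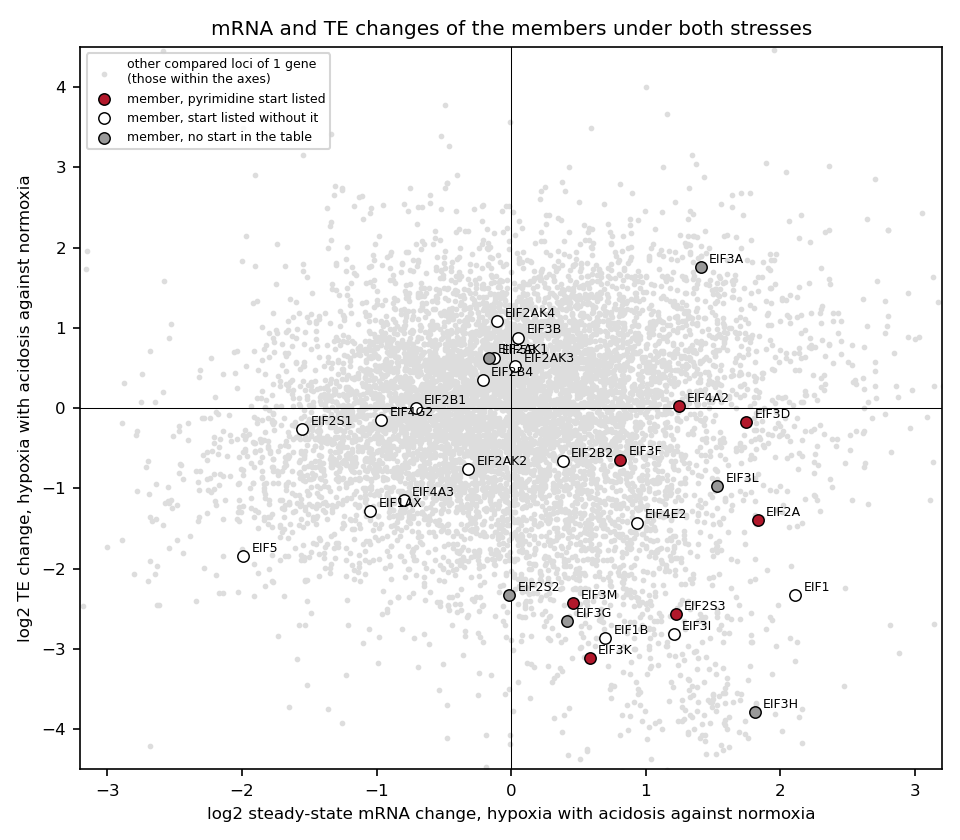
Log2 steady-state mRNA change (x axis) and log2 TE change (y axis) in hypoxia with acidosis against normoxia, relative to the median locus, with genes filled by their annotated start and other compared loci in grey. All 7 genes with a pyrimidine start (red) lie right of 0, EIF2S1 and EIF5 lie at far left, and EIF3A at upper right.

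Coding length went with the TE changes of these genes. Over the 30 genes, Spearman's rho between annotated coding length and TE change was 0.69 for both stresses, 0.30 for acidosis in normoxia, 0.62 for acidosis in hypoxia, 0.40 for hypoxia at pH 7.4 and 0.71 for hypoxia at pH 6.0. Over 7296 compared loci of 1 coding gene the values were 0.38, -0.14, 0.21, 0.33 and 0.49. The points of each correlation share the same 4 or fewer libraries and their depths. The 18 genes with coding sequences shorter than 1500 bases had a median TE change of -2.09 under both stresses, with 16 below 0, and the 12 longer ones 0.44, with 5 below 0. Over all loci of 1 coding gene those medians were -0.37 for 4217 shorter and 0.34 for 3079 longer ones. EIF2S1 (945 bases) and EIF2B1 (915 bases) had changes near 0 in spite of their short coding sequences, and EIF2S3 (1416 bases) a change of -2.57. The length of 1500 bases was chosen after values had been seen. Summed FPKM of the monosome library was highest under both stresses (2164044, against 921452 in normoxia) and its estimated depth lowest, and the part of these in the TE changes was not tested.

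**Figure D5:**
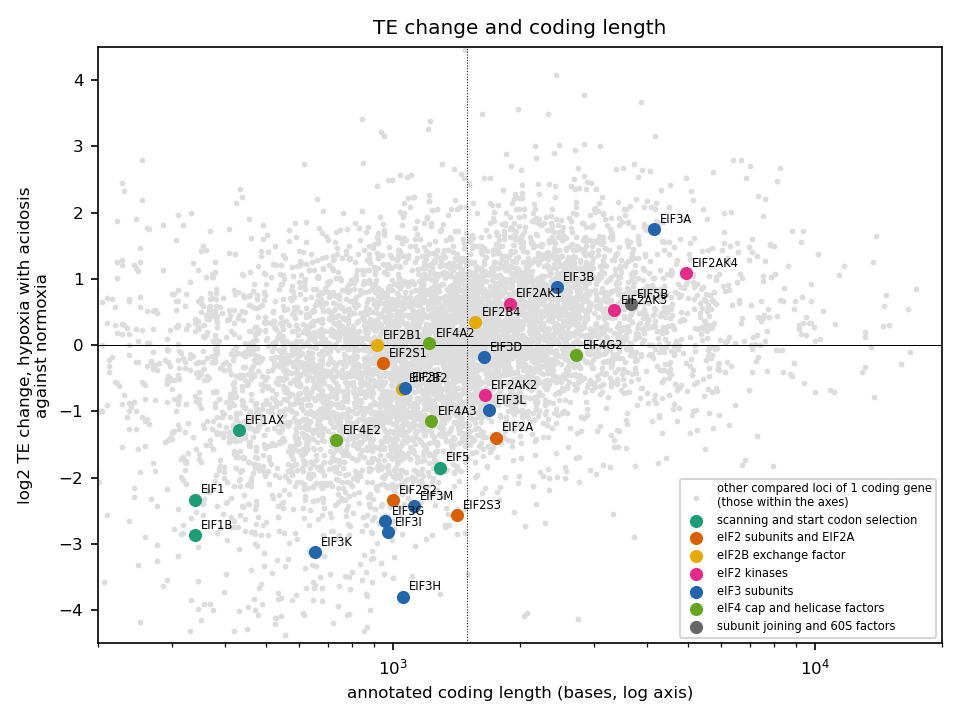
Log2 TE change in hypoxia with acidosis against normoxia, relative to the median locus, by annotated coding length (log axis), for the 30 compared genes coloured by role and other compared coding loci in grey; the dotted line marks 1500 bases. Short coding genes such as EIF3H, EIF3K and EIF1B lie lowest, and EIF3A and EIF2AK4, among the longest, lie highest.

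Calls without the monosome libraries were made with TE as polysome over oligosome. On this scale 8 of the 30 genes were lower with acidosis (26.7%, against 5.66% of loci), 7 with hypoxia (23.3%, against 4.96%) and 18 under both stresses (against 25.5%). With the monosome libraries the counts were 7, 10 and 18, and EIF3H, EIF3G, EIF3K, EIF3M and EIF4A3 were lower with acidosis on both. EIF1B and EIF2S2 lost their lower call with acidosis, and EIF1, EIF1B, EIF2S2 and EIF4E2 lost theirs with hypoxia. EIF3A and EIF3B lost their higher TE under both stresses, at 0.49 and 0.36. With oligosome plus polysome over monosome, EIF3H kept its acidosis call, while EIF3G, EIF3K, EIF3M, EIF4A3 and EIF2S2 lost theirs. On that scale EIF2S3 and EIF3M lost their hypoxia call.

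Other genes of translation, from lists, gave these medians beside the -0.87 of the 30 genes under both stresses: -3.55 for 59 ribosomal protein genes, -0.73 for 7 elongation and release factors and 0.32 for 16 cytosolic aminoacyl-tRNA synthetases. For mRNA they were 1.42, 0.80 and 0.39, beside 0.40.

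Other genes that act on these factors were taken from a list of binding partners, inhibitors and targets, of which 21 could be compared. Among the 21, steady-state mRNA was higher with acidosis for 1 and with hypoxia for 1, and in both cases this was PDCD4, the inhibitor of the eIF4A helicases, where 1.2% and 2.31% of all loci were higher. PDCD4 had 16.7, 42.3 and 71.7 FPKM in hypoxia with acidosis, 12.3, 17.1 and 28.7 in hypoxia, 9.37, 17.5 and 31.8 in normoxia with acidosis, and 3.59, 5.05 and 14.1 in normoxia. Every PDCD4 value under both stresses exceeded the matching values of the single stresses, and these exceeded normoxia in each fraction, with mRNA changes of 1.26 and 1.11 for acidosis, 1.195 and 1.05 for hypoxia and 2.30 for both. In TE, 1 of the 21 was lower with acidosis (ABCE1, a ribosome recycling factor, -0.59 and -2.04) and 1 was higher (DDIT3, a target of ATF4, 0.65 and 2.07). With hypoxia, EIF4EBP2, an EIF4E inhibitor, was lower (-0.91 and -1.36), and DHX29, a scanning helicase (0.75 and 1.52), and PABPC4, a poly(A)-binding protein (0.61 and 2.55), were higher. Over all loci 6.53% were lower and 5.54% higher with acidosis, and 10.7% were lower and 6.11% higher with hypoxia, so TE counts of 1 or 2 among 21 genes do not set this list apart.

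ATF4, whose mRNA is translated when eIF2 is phosphorylated, had 429, 298 and 114 FPKM in hypoxia with acidosis, 357, 138 and 35.2 in hypoxia, 251, 199 and 65.6 in normoxia with acidosis, and 245, 210.2 and 61.1 in normoxia. Its TE change was 0.11 for acidosis in normoxia and 1.42 in hypoxia, -1.23 for hypoxia at pH 7.4 and 0.05 at pH 6.0, and 0.13 under both stresses. PPP1R15A (GADD34), which directs dephosphorylation of EIF2S1, had TE changes of 2.31 under both stresses and 0.53 and 2.202 for acidosis in normoxia and in hypoxia. Phosphorylation of EIF2S1 was not measured, and the libraries hold RNA alone.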

How the data were processed

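RNA from U87MG cells was measured in 12 libraries, 1 for each of 4 conditions and 3 gradient fractions. Per the labels' protocols, the library kit kept strand. GRCh38 and the tools Cuffnorm, Cufflinks 2.2.1, STAR 2.5.0 and bcl2fastq appear in the submitters' processing notes, without the step each served. How Cuffnorm scaled libraries, and the annotation, are not stated in these sources. The authors deposited FPKM per assembled locus. Per the file headers they also deposited a signal, FPKM averaged over duplicate names and multiplied by 1 factor per library for RNA concentration. Those factors, recovered from the signal columns, weighted the fractions of a condition. A second block of 12 per-sample columns and 10 of the authors' summary columns were not used, because their gene names are on other lines than their values.

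Values were analysed as log2 of FPKM plus 1, which understates changes of low genes. Loci of small RNAs (4819) and loci with a mean below 1 FPKM were left out, which left 12195 loci, 8946 of them naming 1 gene. Changes were centred on the median of the 12195 loci. Steady-state mRNA and TE come from the same libraries, and the mean holds ribosome fractions weighted by recovered RNA, so amounts per cell were not measured. Depth was estimated from the smallest steps between low FPKM values and annotated lengths. Counting errors come from fragments over the coding length and cover counting alone. Annotated transcripts are longer than their coding sequences, so the fragment numbers of genes are low estimates and these errors high ones. For TE changes of the 30 genes the errors ran from 0.043 to 0.564, with a median of 0.150. The scripts were tested on simulated data. Python 3.11.15, numpy 2.4.6, pandas 2.3.3, scipy 1.17.1 and matplotlib 3.10.9 were used, with GENCODE release 29 for coding lengths and places and RefSeq for starts.

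The genes, their roles and the comparison lists were chosen with earlier results of these data known. Values in every library are given for genes past a threshold in any comparison, the extremes of TE change, the subunits of eIF2 and eIF4F, and the kinases; other genes of the pathway come from a list, up to 4 per comparison and ATF4. With 1 library per group there was no test, and 11 alternative settings were tried.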

Additional observations from a re-analysis of the deposited data

Results flagged for a closer look

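TE of 5 genes, EIF4B and EIF4E in shared loci among them, passed 1.5-fold in opposite directions in the pairs of 1 factor. This was not tested, since each value rests on 1 library per fraction. Of the 30 compared genes 6.67% did so with acidosis and 10.0% with hypoxia, against 5.79% and 5.97% of all loci that name 1 gene. With acidosis the changes in hypoxia and in normoxia were 0.78 and -0.92 for EIF3D, 1.34 and -1.89 for EIF3F, 2.73 and -1.56 for the shared locus of EIF4B, and -1.57 and 1.19 for the shared locus of EIF4E. With hypoxia the changes at pH 6.0 and at pH 7.4 were 0.77 and -0.90 for EIF3D, 1.27 and -1.93 for EIF3F, 0.59 and -1.16 for EIF3L, and 3.15 and -1.11 for the locus of EIF4B. These rest on the same 8 monosome and polysome libraries, so the acidosis and hypoxia values of a gene are not separate observations. The monosome FPKM of EIF4B was 72.1 in hypoxia with acidosis, 223.6 in hypoxia, 208.3 in normoxia with acidosis and 49.97 in normoxia. Values of the locus of EIF3FP3, a pseudogene of EIF3F, followed EIF3F, with monosome FPKM of 29.8, 41.3, 40.2 and 13.7 in the same conditions, and how reads were divided between such copies was not tested.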

How the results depend on the processing

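No paired analysis was possible because each condition and fraction had 1 library, and no replicate could be left out. Genes lower in TE numbered 7 with acidosis, against 3 with oligosome plus polysome over monosome and 2 at 2-fold, and 10 with hypoxia, against 6 at 2-fold. The 1 gene higher in TE with acidosis became 0 without the filter on low values, without centring, under both other TE definitions and at 2-fold. The 1 higher with hypoxia became 0 under the RNA scaling, with polysome over oligosome and at 2-fold. The 5 higher under both stresses became 3 without centring and 2 under the RNA scaling, with polysome over oligosome and at 2-fold. For mRNA, hypoxia had 1 gene higher with a pseudocount of 0.1 and 1 lower under the RNA scaling and with shared loci included, and both stresses had 8 higher without the filter and 6 lower with shared loci. At 1.5-fold with no rule on fractions, mRNA was higher for 6 and lower for 2 with acidosis, 3 and 1 with hypoxia, and 12 and 6 under both stresses. Shares of all loci at these settings, other than polysome over oligosome, are not given. The counts therefore show how calls of these genes moved and not how the genes compare with other loci. With polysome over oligosome, 3 changes turned round: EIF1B with acidosis (0.36) and under both stresses (0.05), and EIF4E2 under both stresses (0.03). EIF3H kept its calls in all 8 alternatives of each comparison that keep the threshold, as did EIF3G, EIF3I and EIF3K for hypoxia. The cause was not tested. Counting errors over the coding length were largest among the 30 genes for EIF1AX, EIF2AK2 and EIF2AK3, up to 0.56. They reached 0.65 for the shared locus of EIF2B3 and 0.50 for that of EIF4E. These errors take no account of transcript outside the coding sequence.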

Other observations

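EIF4H and its neighbours on chromosome 7 (ELN, LIMK1, LAT2 and CLIP2) each had 2 loci, and all 10 loci were listed at 0 in every library. The locus of the pseudogene EIF4HP1, by contrast, had 33.2 FPKM in the polysome library of hypoxia with acidosis, 15.7 in hypoxia, 16.8 in normoxia with acidosis and 24.5 in normoxia, so a 0 for EIF4H does not show that its mRNA was missing.

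PABPC1, the main cytoplasmic poly(A)-binding protein, had 1729, 2354 and 785 FPKM in hypoxia with acidosis, 3613, 1035 and 351 in hypoxia, 6996, 1281 and 330.2 in normoxia with acidosis, and 4094, 1021 and 294 in normoxia. Its TE change was 2.23 for acidosis in hypoxia and -0.56 in normoxia, 3.29 for hypoxia at pH 6.0 and 0.53 at pH 7.4. MCTS1, a reinitiation and ribosome recycling factor, had 162, 52.2 and 29.3 FPKM in hypoxia with acidosis, 23.5, 36.8 and 60.5 in hypoxia, 31.6, 40.97 and 92.3 in normoxia with acidosis, and 29.5, 35.4 and 98.6 in normoxia. The change of MCTS1 was -4.08 under both stresses against normoxia, and -0.14 and -0.29 for acidosis in normoxia and hypoxia at pH 7.4. Its partner DENR, which acts with MCTS1 as a dimer, had a TE change of -0.34 under both stresses, with mRNA -1.43 relative to the median locus. PABPC1 and MCTS1 had values in hypoxia with acidosis that stood apart from those of the other 3 conditions, with no replicate to check them.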
